A study of Homo sapiens with 10 samples.

Results

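The genes described are those of 4 families with ties to innate immunity whose symbols start with TRIM, PARP, GBP or APOL and a number, apart from TRIM25 and PARP1. A gene entered the test if its probe was detected, with a detection p-value below 0.05, on at least 5 of the 10 arrays. Of 91 such genes with a named probe, 39 met this condition, among 9041 genes tested in all: 28 TRIM genes, 11 PARP genes, 0 GBP genes and 0 APOL genes. The remaining 52 were below the filter, namely 39 TRIM genes, all 7 GBP genes, all 5 APOL genes and PARP15. TRIM22, APOL6, TRIM25, PARP1 and DTX3L had no probe named here and were not analysed here.

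TRIM proteins are mostly ubiquitin ligases with a RING finger, and several restrict viruses or tune the sensing of viral nucleic acid. PARP proteins attach ADP-ribose to their targets: some members answer DNA breaks, while others carry macrodomains or zinc fingers and take part in antiviral defence. GBPs are large GTPases that attack vacuoles of pathogens, and APOL proteins include lytic factors of serum and related proteins inside cells. Many genes of these families are known to be induced by interferons, through STAT factors that bind the interferon-stimulated response element (ISRE) or the gamma-activated site (GAS).

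The series compared OCI-LY10, an established line from a human diffuse large B-cell lymphoma of activated B-cell type, after 18 hours with 1 micromolar CC-122 or with its solvent DMSO, on 5 Illumina arrays each. CC-122 (avadomide) is a ligand of cereblon, which picks the substrates of a ubiquitin ligase, and the series title sets it beside the interferon response. The arrays thus describe 1 cell line, 1 dose and 1 time. Whether replicates came from separate cultures is not stated in the labels. The p-values therefore reflect no more than sample-to-sample spread, possibly technical. Between 18043 and 18844 probes were detected per array, and the median raw intensity was 74.0 to 81.6 on 9 arrays and 108.9 on CC-122 replicate 3. The number of arrays limits the precision. The B-cell markers CD79A, CD79B, MS4A1 (CD20) and CD22 were detected on all 10 arrays. Of these, CD22 fell by 0.78 and MS4A1 by 0.36 on the log2 scale, CD79B rose by 0.27 and CD79A was not called (0.19), and their part in the results was not tested. Of 28 markers of T and NK cells, myeloid cells, erythroid cells and platelets, and stroma or epithelia with a named probe, 4 passed the filter (CD14, FCGR3A, PPBP and EPCAM), and limma called 0 of these.

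Most PARP genes rose, while TRIM genes were called higher at about the share of all genes tested. Among the 39 genes, limma called 9 higher and 1 lower on the CC-122 arrays at an adjusted p below 0.05, which is 25.6% of them, where 14.8% of all genes tested were called (8.15% higher and 6.67% lower). Of 11 PARP genes 7 were higher, 1 lower and 3 not called, with a median log2 difference of 0.38. Of 28 TRIM genes 2 were higher (7.14%, near the 8.15% of all genes tested), 0 lower and 26 not called. Their median was 0.05, as against -0.01 over all genes tested. With arrays scaled to a common median in place of quantile normalization, the count of higher genes among the 39 dropped to 5, and the calls over all genes split into 403 higher and 79 lower, in place of 737 and 603. The arrays of both groups did not overlap for 9 of the 39 genes, 23.1%, and for 13.4% of all genes tested. Of these 9, 8 were among the 11 PARP genes and 1 was among the 28 TRIM genes. A change per cell cannot be told apart from a change in the share of cells that express a gene.

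**Figure D1:**
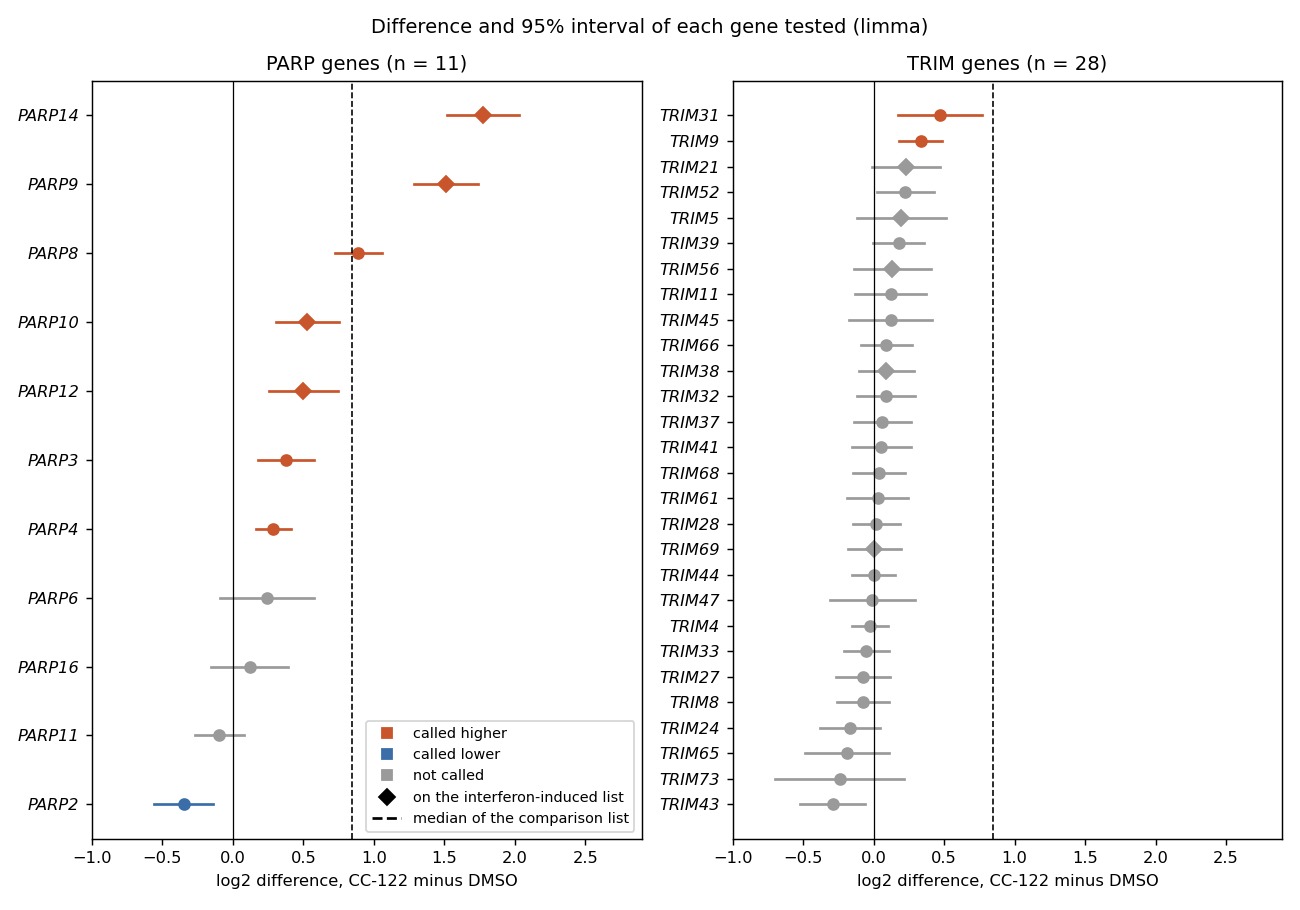
Log2 difference, CC-122 minus DMSO, with its 95% interval for each of the 11 PARP and 28 TRIM genes tested (5 arrays per group, limma). Diamonds mark genes on the list of interferon-induced members, and the dashed line is the median of the comparison list of interferon-induced genes, 0.85. PARP14 and PARP9 lie above that line with their whole intervals, while the intervals of the 28 TRIM genes lie below it.

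To set the families beside the interferon response, 50 other genes widely known to be induced by interferons served as a comparison list. The list was chosen with earlier results of these data known, so it is no independent measure of that response. It does not hold PML and ZC3HAV1, relatives of the families that were not called. Of the 36 tested, 31 were higher and 5 were not called, with a median log2 difference of 0.85. Of these 36, 5 were undetected on every DMSO array and 4 were detected on 1 DMSO array, so they met the condition on detection wholly or mainly through the CC-122 arrays, and the count and median describe genes selected in part that way. Without the filter 31 of 42 were higher, with a median of 0.65, and among genes detected on all 10 arrays 22 of 24, with a median of 1.03. The 3 with the largest difference were MX1, the chemokine CXCL10 at 2.88 and the ubiquitin-like ISG15 at 2.52. MX1, an antiviral GTPase, was undetected under DMSO and at least 15.9-fold higher under CC-122 with the main background correction. Its adjusted p of 6.39e-11 from limma belongs to the fitted difference of 4.17. Without background correction the fitted differences were 2.48 for MX1, in place of 4.17, 1.65 for CXCL10 and 1.72 for ISG15, all called. For MX1 that is a smaller fold than the bound, which holds for the main correction only. Within the families, 21 genes were listed as interferon-induced. Of these 9 were tested, and 4 were higher and 5 not called. The 4 were all PARP genes and the 5 all TRIM genes. This list, too, was chosen with earlier results of these data known, so the split is no independent measure of the families. The remaining 12 were TRIM14, TRIM34, GBP1 to GBP5 and APOL1 to APOL3, below the filter, and TRIM22 and APOL6, with no named probe.

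**Figure D2:**
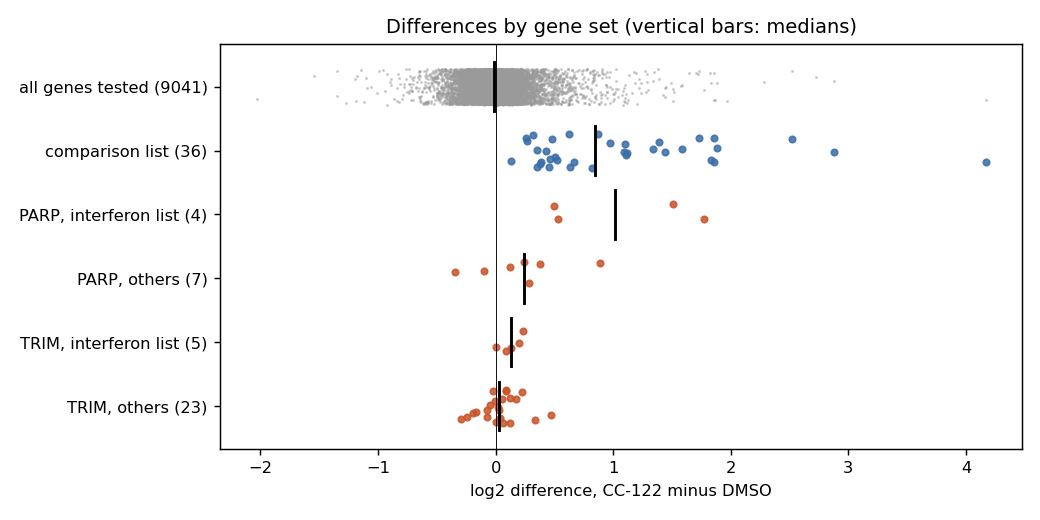
Log2 difference, CC-122 minus DMSO, of each gene, by set, with the number of genes in parentheses and the median as a vertical bar; vertical scatter within a set has no meaning. The 4 PARP genes of the interferon list spread from 0.50 to 1.77 within the range of the comparison list, and the 5 TRIM genes of that list from 0.01 to 0.23.

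PARP14 and PARP9 rose most. Both carry macrodomains that bind ADP-ribose. They are also called BAL2 and BAL1, after B-aggressive lymphoma, because PARP9 was described in aggressive large B-cell lymphomas. PARP14 is known as a coactivator of STAT6, and PARP9 works with the ubiquitin ligase DTX3L. In log2 intensity PARP14 read 4.60, 5.30, 4.78, 5.02 and 4.99 on the DMSO arrays and 6.91, 6.56, 6.72, 6.68 and 6.69 on the CC-122 arrays. Every CC-122 array was above every DMSO array, by more than the spread within either group. PARP14 rose 3.41-fold, by 1.77 ± 0.12 in log2 units (SE, adjusted p = 9.37e-07 from limma), and ranked 13th among the rises of all 9041 genes. Its probe was detected on 4 of the 5 DMSO arrays. PARP9 read 4.94, 5.14, 5.26, 5.12 and 5.39 on the DMSO arrays and 6.94, 6.47, 6.56, 6.64 and 6.78 on the CC-122 arrays, again with the groups apart. It rose 2.85-fold, by 1.51 ± 0.10 (adjusted p = 1.20e-06), ranked 21st, and its second kept probe gave 1.27. In the comparison list, 7 of 36 genes had a larger difference than PARP14 and 9 a larger one than PARP9. Sizes near the background depend on its correction. An alternative, the fixed offset below, added 50 in place of 16. It also estimated the background without the detection p-values that the main correction used. With it the differences were 0.96 for PARP14 and 0.85 for PARP9, both called.

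PARP9, DTX3L, PARP15 and PARP14 lie in this order, close together, on chromosome 3. PARP15, the third macrodomain PARP of that cluster (BAL3), was detected on 0 of 10 arrays, with group means of 4.32 and 4.34. PARP15 had no other named probe, so a gene not expressed cannot be told apart from a probe that gave no signal. Whether these neighbours differed in expression is thus not settled. DTX3L, which sits beside PARP9, was not analysed here.

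PARP10 and PARP12, the other interferon-listed PARP genes, rose by less. PARP10 is a mono-ADP-ribosyltransferase found through its binding to MYC. It read 5.92, 6.22, 6.05, 5.94 and 5.58 on the DMSO arrays and 6.53, 6.53, 6.38, 6.39 and 6.51 on the CC-122 arrays. The groups did not overlap, and the DMSO arrays were the more scattered. PARP10 rose 1.44-fold, by 0.53 ± 0.10 in log2 units (SE, adjusted p = 0.0035). PARP12, an enzyme with CCCH zinc fingers that blocks replication of several RNA viruses, read 6.16, 5.74, 6.17, 5.71 and 6.06 under DMSO and 6.31, 6.29, 6.55, 6.67 and 6.53 under CC-122. The groups did not overlap, but lay close together. PARP12 rose 1.41-fold, by 0.50 ± 0.11 (adjusted p = 0.00984). With the fixed offset the differences were 0.32 for PARP10 and 0.30 for PARP12. ZC3HAV1 (the antiviral zinc finger protein ZAP, also named PARP13) and TIPARP (PARP7), relatives whose symbols do not carry the family name, differed by 0.19 (95% interval 0.02 to 0.36, adjusted p = 0.124) and 0.11 (95% interval -0.08 to 0.30, adjusted p = 0.46), and limma called neither.

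**Figure D3:**
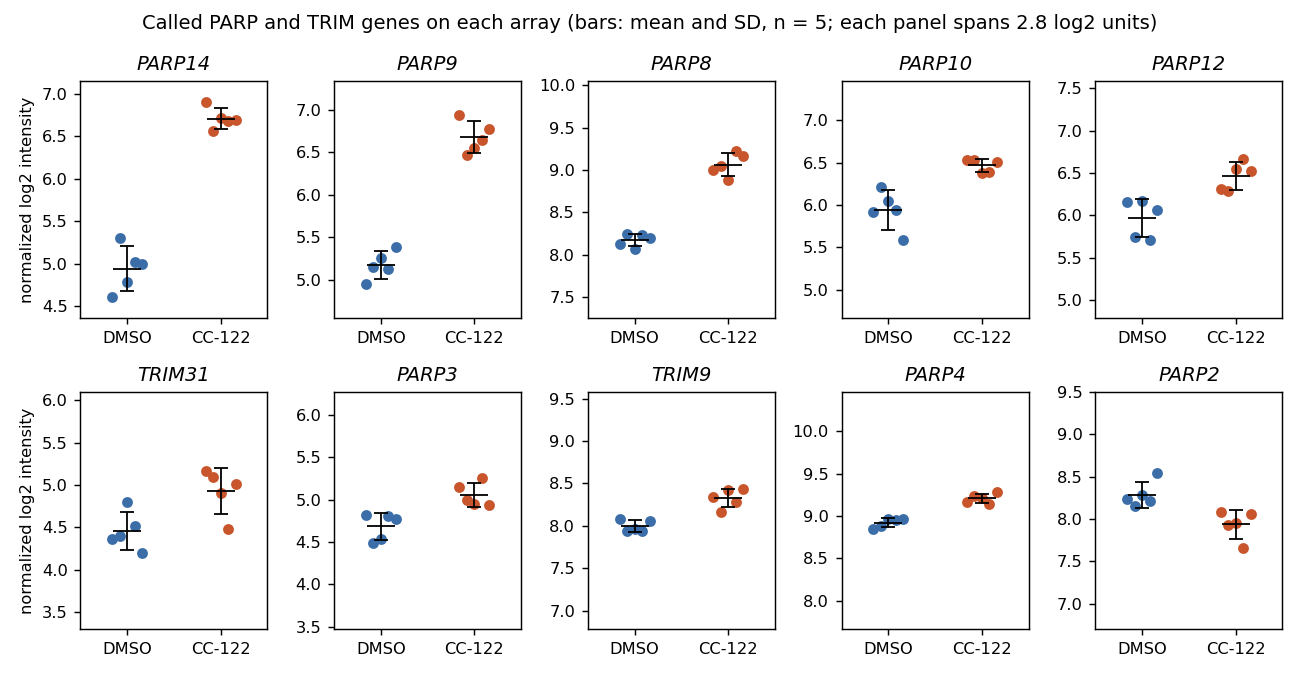
Normalized log2 intensity of the 10 called genes on each array, 5 DMSO (blue) and 5 CC-122 (orange); bars give the mean and SD, and each panel spans 2.8 log2 units around its own centre. The groups are apart for PARP14, PARP9, PARP8, PARP10, PARP12, PARP3, PARP4, TRIM9 and PARP2 and overlap for TRIM31.

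PARP8 rose as well, although it was not on the interferon list. It is a mono-ADP-ribosyltransferase whose function is little known. It read 8.13, 8.24, 8.07, 8.23 and 8.19 on the DMSO arrays and 9.0, 9.05, 8.88, 9.23 and 9.16 on the CC-122 arrays, with no overlap and little scatter. PARP8 rose 1.85-fold, by 0.89 ± 0.08 in log2 units (SE, adjusted p = 5.93e-06), and 17 of the 36 comparison genes had a larger difference. Its other 2 probes were detected on 0 of 10 arrays, so the rise rests on 1 probe. That probe was far above the background, and the difference was 0.80 with the fixed offset.

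The remaining called PARP genes differed by small amounts. PARP4, a component of vault particles, read 8.85, 8.88, 8.96, 8.96 and 8.96 under DMSO and 9.17, 9.23, 9.21, 9.14 and 9.28 under CC-122, and rose by 0.29 ± 0.06 in log2 units (SE, adjusted p = 0.00458). PARP3, which acts in the repair of DNA breaks, read 4.82, 4.49, 4.53, 4.80 and 4.77 under DMSO, where 3 of 5 arrays detected it, and 5.15, 5.00, 4.95, 5.26 and 4.93 under CC-122, and rose by 0.38 ± 0.09 (adjusted p = 0.0153). The groups did not overlap for either gene. PARP3 was near the background and lost its call with the fixed offset (0.16, adjusted p = 0.0615), without background correction (0.13, adjusted p = 0.0901) and with an intensity trend in the fit (adjusted p = 0.0652). Both genes lost their calls with median scaling, where the differences were no smaller, 0.38 for PARP4 (adjusted p = 0.286) and 0.39 for PARP3 (adjusted p = 0.26).

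PARP2, a poly-ADP-ribose polymerase activated by DNA breaks, was the gene called lower. It read 8.23, 8.16, 8.28, 8.21 and 8.54 on the DMSO arrays and 8.08, 7.93, 7.95, 7.66 and 8.06 on the CC-122 arrays, all below the DMSO arrays. PARP2 fell by 0.35 ± 0.10 in log2 units (SE, adjusted p = 0.0283 from limma), and its second probe gave -0.23. Leaving out any 1 of DMSO replicates 3 and 5 and CC-122 replicates 2, 3 and 4 ended the call (adjusted p up to 0.0589), as did testing with no filter on dim probes (adjusted p = 0.0518) and median scaling (-0.26, adjusted p = 0.665).

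The other PARP genes tested were not called. PARP6 differed by 0.24 (95% interval -0.09 to 0.58), PARP16, an enzyme of the endoplasmic reticulum membrane, by 0.12 (95% interval -0.16 to 0.39) and PARP11 by -0.10 (95% interval -0.27 to 0.08). The groups overlapped for all 3. Group means, DMSO first, were 4.74 and 4.98 for PARP6, 4.91 and 5.03 for PARP16 and 5.01 and 4.91 for PARP11. These lie near the lowest detected signal of an array, 4.63 to 4.67, so background limits what could be seen of all 3. On CC-122 replicate 3 PARP6 read 5.59, above the 4.74 to 5.00 of the other CC-122 arrays, and without that array PARP6 differed by 0.09. PARP16 differed by 0.03 without CC-122 replicate 4 and by 0.19 without CC-122 replicate 2.

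None of the 5 interferon-listed TRIM genes tested was called, and 0 had an unadjusted p below 0.05. All 5 differences were positive, with a median of 0.13, beside 0.03 for the other 23 TRIM genes tested and -0.01 over all genes tested. TRIM21 (Ro52), a cytosolic receptor for antibodies on incoming viruses, read 6.57, 6.48, 6.42, 6.50 and 6.43 on the DMSO arrays and 6.38, 6.64, 6.56, 7.0 and 6.96 on the CC-122 arrays. CC-122 replicates 2, 4 and 5 were above all DMSO arrays, and replicate 1 was below them. TRIM21 differed by 0.23 (95% interval -0.01 to 0.47, adjusted p = 0.197), the largest positive difference among the uncalled TRIM genes. TRIM5, which binds retroviral capsids, read 6.06, 5.66, 5.14, 5.56 and 5.86 under DMSO and 6.11, 5.79, 5.83, 5.82 and 5.72 under CC-122, with overlap. It differed by 0.20 (95% interval -0.12 to 0.52), and its second kept probe gave 0.24. A rise as large as that of PARP12, 0.50, is within the interval of TRIM5. TRIM56, which promotes signalling by nucleic acid sensors, differed by 0.13 (95% interval -0.14 to 0.41). TRIM38, a regulator of Toll-like receptor signalling, differed by 0.09 (95% interval -0.11 to 0.29). TRIM69 differed by 0.01 (95% interval -0.18 to 0.19), with detection on 3 DMSO and 4 CC-122 arrays. Single arrays moved these differences: with any 1 left out, TRIM5 lay between 0.07 (without DMSO replicate 3) and 0.30 (without DMSO replicate 1), TRIM56 between 0.07 and 0.21 (without CC-122 replicates 4 and 1) and TRIM38 between 0.04 and 0.15 (without CC-122 replicates 2 and 1).

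TRIM9 and TRIM31 were the TRIM genes called higher. TRIM9, a ligase best known from neurons, read 8.08, 7.93, 7.96, 7.94 and 8.06 under DMSO and 8.34, 8.17, 8.43, 8.28 and 8.43 under CC-122, without overlap, and rose by 0.33 ± 0.07 in log2 units (SE, adjusted p = 0.00574). Its other kept probes gave -0.08 and -0.01, so probes of TRIM9 disagreed, and their mean was not called (0.08, adjusted p = 0.672). The call was also lost with median scaling, where the difference was 0.42 (adjusted p = 0.171). TRIM31, which modifies the antiviral adaptor MAVS, read 4.37, 4.40, 4.81, 4.52 and 4.20 under DMSO and 5.17, 5.10, 4.90, 4.48 and 5.01 under CC-122, with overlap. It rose by 0.47 ± 0.14 (adjusted p = 0.037). TRIM31 was detected on 1 DMSO and 4 CC-122 arrays, so it met the condition on detection mainly through the group in which it was high. Its second probe, below the filter, gave -0.02. The call of TRIM31 was lost when any 1 array other than DMSO replicate 3 and CC-122 replicate 4 was left out (adjusted p up to 0.0862), with median scaling and with no filter on dim probes. A fit with a block for replicate numbers ended it too (adjusted p = 0.0705).

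The 26 uncalled TRIM genes lay between -0.29 and 0.23, 17 above and 9 below 0. TRIM43 had the lowest value, -0.29 (95% interval -0.52 to -0.06, adjusted p = 0.0886), and was detected on 4 DMSO arrays and 1 CC-122 array. It thus met the condition on detection mainly through the group in which it was high. TRIM43 was not called in the main fit. The replicate block (adjusted p = 0.0404) or leaving out DMSO replicate 3 (adjusted p = 0.02) brought it below the threshold. TRIM52, at 0.23 (adjusted p = 0.132), was called higher without CC-122 replicate 1 (0.29, adjusted p = 0.0499). TRIM43 has near-identical copies in the genome, so its probe may read those as well. TRIM24, TRIM28, TRIM33 and TRIM66, which belong to the TIF1 group of chromatin-bound corepressors, were all tested, and 0 of 4 were called, between -0.17 and 0.09. Second kept probes gave -0.25 for TRIM24 and -0.12 for TRIM33. TRIM28 (KAP1), the corepressor of KRAB zinc finger proteins, differed by 0.02 (95% interval -0.15 to 0.18), so a change as large as that of PARP10 is outside its interval. MID1, a TRIM relative without the family symbol, and PML, also known as TRIM19, differed by -0.06 each (adjusted p = 0.625 and adjusted p = 0.818), and limma called neither.

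The GBP and APOL families were not detected under either condition by most of their probes. All 9 GBP probes were below the filter, and 7 of them were detected on 0 of 10 arrays. A GBP1 probe was detected on 1 CC-122 array and a GBP6 probe on 1 DMSO array. Group means of GBP probes lay between 4.26 and 4.49 and the highest reading on any array was 4.69, where the lowest detected signal of an array was 4.63 to 4.67. Of 9 APOL probes 7 were never detected, and APOL1 and APOL5 were each detected on 1 DMSO array. APOL probes had group means between 4.20 and 4.47, and a highest reading of 4.94, above those lowest detected signals. No GBP or APOL probe was detected on more than 1 array, and no fold is given. Without the filter limma called 0 of the 12 GBP and APOL genes, and 0 had an unadjusted p below 0.05. Of 8 genes linked to the GAS that had a named probe, GBP1 to GBP5 were below the filter and 3 were tested. The chemokine CXCL9 was undetected on the DMSO arrays and at least 1.21-fold higher under CC-122 with the main background correction. Its adjusted p of 3.78e-05 from limma belongs to the fitted difference of 0.67. SOCS1, an inhibitor of cytokine signalling, fell by 0.34 (adjusted p = 0.032). The transcription factor IRF1 differed by 0.13 (adjusted p = 0.58) and was not called. APOLD1, a relative of the APOL genes in blood vessels, differed by -0.14 (adjusted p = 0.415).

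**Figure D4:**
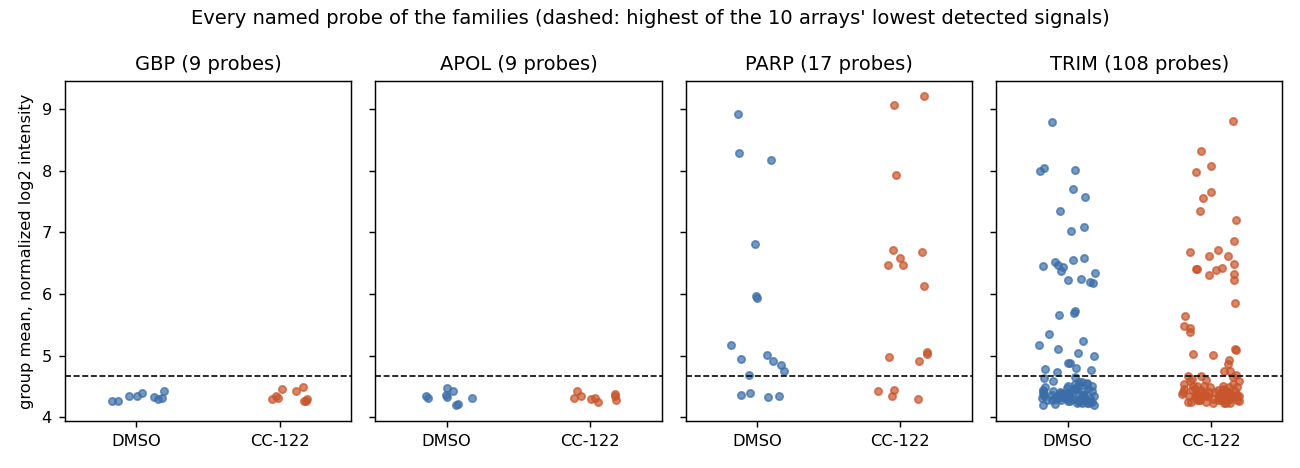
Group mean of normalized log2 intensity for every named probe of the 4 families under DMSO (blue) and CC-122 (orange); horizontal scatter has no meaning. The dashed line, at 4.67, is the highest of the 10 arrays' lowest detected signals. All 9 GBP and all 9 APOL probes lie below it in both groups, while PARP and TRIM probes lie on both sides.

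At the edge of the detection condition, TRIM31 and TRIM43 passed with 5 arrays. TRIM13, TRIM14 and TRIM67 stayed out with 4. TRIM14, an interferon-induced adaptor of MAVS signalling, had means of 4.51 and 4.62. TRIM13 had means of 4.65 and 4.41, and TRIM67 had means of 4.47 and 4.66, DMSO first. A total of 30 of the 39 tested genes were detected on all 10 arrays, and 7 of the 10 called genes were among these.

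The promoter windows of the members differ in whether they hold the letters of the interferon elements. The windows are RefSeq's for GRCh38.p14, 250 bases before to 50 after each gene's start, written 5′ to 3′ in the direction of the gene. The ISRE was searched as GAAA, any 2 bases and GAAA again, on both strands. The GAS was searched as TTC, any 3 bases and GAA, which reads alike on both strands. The windows below are those of the interferon-listed PARP genes that rose (PARP14, PARP12 and PARP9), of uncalled TRIM genes (TRIM21 and TRIM5) and of GBP1, which was below the filter. PARP10, the other interferon-listed PARP gene that rose, is not shown. Capitals mark the matches.
PARP14, chr3:122680589-122680888, plus strand: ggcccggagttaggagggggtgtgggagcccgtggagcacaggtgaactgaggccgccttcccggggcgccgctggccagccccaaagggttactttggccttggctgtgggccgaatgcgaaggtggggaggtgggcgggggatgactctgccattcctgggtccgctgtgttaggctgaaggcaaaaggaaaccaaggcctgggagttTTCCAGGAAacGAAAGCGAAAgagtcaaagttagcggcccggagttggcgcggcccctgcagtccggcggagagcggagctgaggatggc
PARP12, chr7:140062902-140063201, minus strand: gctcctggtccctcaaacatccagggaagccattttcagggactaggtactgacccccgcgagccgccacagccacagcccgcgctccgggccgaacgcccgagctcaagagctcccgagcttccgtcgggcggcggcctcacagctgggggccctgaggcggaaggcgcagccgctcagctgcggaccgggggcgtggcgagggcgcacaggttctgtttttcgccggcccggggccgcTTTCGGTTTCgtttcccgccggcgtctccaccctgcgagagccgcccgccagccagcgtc
PARP9, chr3:122564735-122565034, minus strand: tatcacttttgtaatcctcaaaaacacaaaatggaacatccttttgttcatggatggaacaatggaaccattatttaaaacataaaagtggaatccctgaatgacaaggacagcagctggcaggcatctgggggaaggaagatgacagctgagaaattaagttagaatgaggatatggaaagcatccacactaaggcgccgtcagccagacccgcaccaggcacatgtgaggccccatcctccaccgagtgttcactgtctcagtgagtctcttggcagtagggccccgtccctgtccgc
TRIM21, chr11:4393653-4393952, minus strand: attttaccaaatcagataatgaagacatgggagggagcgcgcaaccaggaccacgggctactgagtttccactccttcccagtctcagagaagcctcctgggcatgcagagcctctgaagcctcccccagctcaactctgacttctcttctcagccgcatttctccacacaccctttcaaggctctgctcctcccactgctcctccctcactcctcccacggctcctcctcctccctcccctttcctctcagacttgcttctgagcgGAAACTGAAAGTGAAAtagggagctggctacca
TRIM5, chr11:5685025-5685324, minus strand: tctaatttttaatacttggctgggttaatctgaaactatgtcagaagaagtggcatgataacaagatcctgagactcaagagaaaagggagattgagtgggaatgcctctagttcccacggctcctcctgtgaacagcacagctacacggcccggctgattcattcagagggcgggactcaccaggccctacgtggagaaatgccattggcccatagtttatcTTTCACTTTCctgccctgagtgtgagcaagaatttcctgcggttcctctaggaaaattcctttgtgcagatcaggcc
GBP1, chr1:89065159-89065458, minus strand: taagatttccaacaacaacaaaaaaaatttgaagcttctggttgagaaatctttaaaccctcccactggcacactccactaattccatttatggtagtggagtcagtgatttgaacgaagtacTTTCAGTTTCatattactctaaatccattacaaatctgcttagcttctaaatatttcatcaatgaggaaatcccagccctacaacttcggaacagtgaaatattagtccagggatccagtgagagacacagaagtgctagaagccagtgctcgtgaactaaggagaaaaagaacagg

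Counted from the gene's start, with negative positions before it, the PARP14 window held a GAS match from position -40 and an ISRE match from -29, without overlap. PARP12 held an ISRE match from -10, and PARP9 had neither element in this window. Both ISRE matches of TRIM21 overlap each other, from positions 18 and 24, TRIM5 held an ISRE match from -27 and GBP1 from -127. TRIM69 also held an ISRE match, as did TRIM44 (from -35), which was neither called nor on the interferon list. PARP2, the gene called lower, held a GAS match from -154. In all, 3.65% of 27305 windows held the ISRE letters and 7.88% the GAS letters. Over the 7381 tested genes with a window, these shares were 3.03% and 6.19%. The ISRE letters were in 22 of 31 comparison genes with a window and in 2 of 3 interferon-listed PARP genes with a window. They were also in 3 of 5 interferon-listed TRIM genes and in 3 of 5 GBP genes with a window. The GAS letters were in 9 of the 31 comparison genes and 1 of the 5 GBP genes. Of the tested genes with a window, 2 of 9 PARP genes (PARP14 and PARP2) and 0 of 20 TRIM genes held the GAS letters. The ISRE letters were in 2 of these 9 PARP genes and 4 of these 20 TRIM genes, which are similar shares. Genes with the ISRE letters were thus found among those that rose, those not called and those below the filter. A match of letters is a description and does not show that a factor binds.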

How the data were processed

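Per the labels' protocols, OCI-LY10 cells received CC-122 or DMSO, total RNA came from a Qiagen miRNeasy extraction and was amplified and labelled with biotin (Illumina TotalPrep). The authors deposited an intensity for each of 48107 probes per array, which differed in median between arrays, and with each intensity a detection p-value. The authors' normalized table, on a log2 scale by its values, was an alternative, with a method not given in the sources used here. Its columns each matched their own array best (correlation at least 0.99993), which settles direction and shows no centring of single probes. A correlation does not fix a shift or a factor. Each column had a median of 4.54 over the 34468 probes of that table. The values normalized here had a median of 4.46 over a larger set of probes. On the probes in both, the median difference was 0.04, the authors' values being higher.

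The neqc function of limma 3.58.1 (R 4.3.3; offset 16, then quantile) normalized the intensities, leaving out 1 probe with a missing value. The platform annotation gave 1 gene to 26359 of 26362 probes and several to 3, and 21745 deposited probes were not listed and stayed unnamed. The kept probe with the highest mean stood for its gene. The 5 CC-122 arrays were set against the 5 DMSO arrays in limma (lmFit, eBayes, two-sided, Benjamini-Hochberg over 9041 genes, called below 0.05). Adjusted p-values of alternatives come from limma too, over the genes tested in that alternative. The fit was tested on simulated data. Where a group never detected a probe, the fold is a bound against the lowest detected signal of each array. It holds for the main background correction, and the p-value beside it is that of the fitted difference.

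The genes, the lists of interferon-induced, GAS-linked and related genes, and the naming rule were chosen with earlier results of these data known. That rule took every called gene, all interferon-listed and PARP genes tested, the uncalled TRIM genes with the largest rise and fall, the related genes tested and the 3 largest changes of the comparison list. Other named genes were chosen after their values were seen.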

Additional observations from a re-analysis of the deposited data

Results flagged for a closer look

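Of 38 groups of 5 arrays, from 19 named TRIM and PARP genes in each condition, 1 held an array that stood apart. TRIM5 read 6.11 on CC-122 replicate 1, while the other CC-122 arrays read 5.72 to 5.83. The gap was 0.724 of the group's whole range, where Dixon's critical value is 0.71. Chance flags about 1 in 20 such groups.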

How the results depend on the processing

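PARP14, PARP9, PARP8, PARP10 and PARP12 were called higher in all 99 fits under the 20 other settings that gave them a value (10 processing alternatives and each of 10 arrays left out), and the 5 interferon-listed TRIM genes in 0 of 99, with the lowest adjusted p at 0.0587. PARP14 was not tested among probes detected on all 10 arrays. Median scaling gave 5 genes of the families higher and 0 lower and 482 calls over all genes, in place of 9, 1 and 1340. The cause was not tested. The count of lower genes was 0 without the filter on dim probes, 2 with the replicate block, and 0 to 1 with any 1 array left out. PARP2 lost its call without the filter and in 5 of the 10 fits with 1 array left out. TRIM43 was also called under the block, and in place of PARP2 without DMSO replicate 3. The median of the comparison list was 0.57 without background correction and 1.03 among probes detected on all 10 arrays.

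Values near 0 changed sign: TRIM69 lay between -0.0625 and 0.0521 and PML between -0.11 and 0.0603 with 1 array left out, and MID1 was at 0.0339 with median scaling. Same-numbered arrays deviated together in 1 of 5 pairs at a correlation above 0.1, and 4 of 5 numbers had their own number as best partner, a hint from the data. Same-numbered DMSO and CC-122 arrays also stand beside each other in the file under consecutive column names, which does not say what they share. Whether the arrays are paired was thus not settled. With not every pair above 0.1, the main fit left them unpaired, and the replicate block was run as an alternative. The block fit ended the call of TRIM31 (0.47, adjusted p = 0.0705). No slide was named in the file headers, so no slide block was run. Signal over background limits the dim genes, GBP and APOL above all.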
